A study of Homo sapiens with 6 samples.

Results

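Forkhead genes encode transcription factors that share a winged-helix DNA-binding domain. The 44 members were symbols in the expression table with the FOX prefix, a subfamily letter from A to S and a number, out of 27788 symbols. A last letter was allowed, as in FOXO3B, and FOXH1 was left out by rule, so the pool sums do not include it. Members were chosen by name and not by their values. Their messenger RNA was measured on day 8 of reprogramming in BJ, a cell line established from human foreskin fibroblasts. All 6 libraries share that line, the lentiviral O2S and K2M polycistronic constructs that carry OCT4, SOX2, KLF4 and MYC (OSKM), a first culture period in serum, a passage onto Matrigel and a final period in human embryonic stem cell medium. The cells were sorted into 3 groups, with 2 libraries each, by 2 surface proteins, CD13 (encoded by ANPEP) and CD201 (encoded by PROCR). The double-negative cells lacked both proteins (CD13- CD201-), the CD201-only cells had CD201 alone (CD13- CD201+), and the double-positive cells had both (CD13+ CD201+). Each library comes from a sorted bulk population, and the labels do not say whether the 2 replicates of a group came from separate cultures, so the p-values measure only the spread between these libraries, which may be technical.

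Forkhead factors are divided into lettered subfamilies with distinct roles. FOXF, FOXL, FOXC and FOXD members act in mesoderm and mesenchyme, and FOXF1 and FOXF2 respond to Hedgehog signals in the mesenchyme of lung and gut. FOXA members open closed chromatin as pioneer factors in endoderm and in hormone-responsive epithelia, FOXM1 drives the expression of mitotic genes in dividing cells, and FOXO members are held out of the nucleus by AKT phosphorylation and 14-3-3 binding, so that their messenger RNA level is not a measure of their activity.

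Promoter windows of 5 members are printed because their levels separated the groups in different ways: FOXF2 was highest in double-positive cells, FOXA1 and FOXO1 in double-negative cells, and FOXD1 and FOXC1 in CD201-only cells. Each window runs from 250 bases before to 50 bases after the RefSeq gene start on build GRCh38.p14, is written 5′ to 3′ on the strand of the gene, and has matches to 1 of 7 motifs, searched on both strands, in capitals.
FOXF2 (chr6:1389326-1389625, plus strand): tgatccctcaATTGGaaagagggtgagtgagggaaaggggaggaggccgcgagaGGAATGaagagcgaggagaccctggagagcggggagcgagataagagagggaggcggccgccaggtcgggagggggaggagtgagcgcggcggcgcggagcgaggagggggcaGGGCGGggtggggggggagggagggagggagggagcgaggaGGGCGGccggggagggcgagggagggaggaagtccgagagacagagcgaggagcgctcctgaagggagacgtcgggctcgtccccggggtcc
FOXA1 (chr14:37595200-37595499, minus strand): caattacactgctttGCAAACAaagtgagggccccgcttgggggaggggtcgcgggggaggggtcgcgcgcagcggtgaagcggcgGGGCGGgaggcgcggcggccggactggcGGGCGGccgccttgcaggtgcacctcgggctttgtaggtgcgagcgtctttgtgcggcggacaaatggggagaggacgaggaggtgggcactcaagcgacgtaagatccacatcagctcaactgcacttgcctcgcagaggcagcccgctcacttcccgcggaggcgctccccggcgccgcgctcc
FOXD1 (chr5:73448728-73449027, minus strand): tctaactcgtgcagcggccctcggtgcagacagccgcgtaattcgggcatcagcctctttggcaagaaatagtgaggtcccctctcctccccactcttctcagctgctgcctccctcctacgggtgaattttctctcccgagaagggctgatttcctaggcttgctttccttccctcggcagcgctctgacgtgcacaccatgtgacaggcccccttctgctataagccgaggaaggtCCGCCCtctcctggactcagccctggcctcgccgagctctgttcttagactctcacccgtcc
FOXC1 (chr6:1609665-1609964, plus strand): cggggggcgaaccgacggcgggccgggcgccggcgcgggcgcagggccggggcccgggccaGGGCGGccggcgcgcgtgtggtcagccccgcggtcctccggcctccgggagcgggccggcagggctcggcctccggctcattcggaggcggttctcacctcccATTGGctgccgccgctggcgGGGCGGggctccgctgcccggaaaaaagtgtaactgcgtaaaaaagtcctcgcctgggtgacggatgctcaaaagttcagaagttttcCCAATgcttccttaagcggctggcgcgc
FOXO1 (chr13:40666592-40666891, minus strand): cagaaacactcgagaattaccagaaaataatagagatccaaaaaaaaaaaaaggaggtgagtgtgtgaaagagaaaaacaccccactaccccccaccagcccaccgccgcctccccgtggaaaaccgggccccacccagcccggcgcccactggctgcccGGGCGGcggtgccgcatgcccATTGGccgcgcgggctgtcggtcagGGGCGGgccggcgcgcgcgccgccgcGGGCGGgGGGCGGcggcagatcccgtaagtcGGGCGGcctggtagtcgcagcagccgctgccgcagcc
The motifs were the TATA box (TATAAA), the GC box (GGGCGG), the CCAAT box (CCAAT), the E-box (CACGTG), the AP-1 site (TGANTCA), the TEAD site (CATTCC) and the forkhead site (TGTTTNC), and no matches overlapped in these 5 windows. FOXA1 was the member of the 5 with a match to the forkhead site, which began at position -235 from the gene start, beside 2 GC boxes. FOXF2 held 2 GC boxes, 1 CCAAT box and 1 TEAD site. FOXO1 held 5 GC boxes and 1 CCAAT box, FOXC1 held 2 of each, and FOXD1 held 1 GC box at position -12. Windows were found for 34 of the 44 members, 45 windows in all because some genes have several starts. Of these 45, 31 (68.9%) held a GC box against 45.0% of all 35116 windows of the same length, 10 (22.2%) held a CCAAT box against 34.6%, and 5 (11.1%) held the forkhead site against 18.0%. A TEAD site was in 6 (13.3% against 14.03%), an AP-1 site in 4 (8.89% against 7.71%), a TATA box in 3 (6.67% against 11.5%) and an E-box in 3 (6.67% against 7.26%). The median GC content was 68.0% in the forkhead windows and 58.7% in all windows. These matches describe letters only, and no binding was measured.

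Levels are given in FPKM, fragments counted relative to transcript length and library size, a unit per length in which genes can be set side by side. The libraries held FPKM sums of 489152 to 521352, and their depth, which the files do not state, was estimated from the steps between the lowest values at a relative 0.727 to 1, the deepest being CD201-only replicate 2. Of the 44 members, 22 averaged 1 FPKM or more and were tested with limma among 12210 genes. FOXA1, FOXC2 and FOXO6 reached that mean only through their highest group, so a difference was built into their selection. FOXJ1 and FOXS1 stayed under the mean but reached 1 FPKM in some library. Another 14 stayed under 1 FPKM in every library (among them FOXA3, FOXD2, FOXD3, FOXD4, FOXE3, FOXL2, FOXN1, FOXN2, FOXN4, FOXP2, FOXP3, FOXQ1 and FOXR1), and 6 were listed at 0 throughout (FOXA2, FOXB1, FOXB2, FOXI1, FOXI2 and FOXR2). The sorted proteins followed the gates in part: mean ANPEP was 155 FPKM in double-positive cells against 36.0 in double-negative and 28.9 in CD201-only cells, and mean PROCR was 51.9 FPKM against 17.3 and 47.4. Fibroblast markers were present in every library. Their summed levels were 5514 to 5518 FPKM in double-negative, 6339 to 6364 in CD201-only and 10631 to 10790 in double-positive libraries. FAP alone of the 12 stayed under a mean of 1 FPKM. Pluripotent cell markers summed to 596 to 600 FPKM in double-negative, 500 to 506 in CD201-only and 266 to 270 in double-positive libraries. A single marker of that list reached 417 FPKM in some library, so the sums do not show the level of each marker.

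FOXM1 and FOXD1 were the most abundant forkhead transcripts in every group, and the share of the FOXF genes in the pool differed severalfold between groups. The 44 members summed to 232.3 ± 1.42 FPKM (SD, n = 2) in double-negative, 268.7 ± 0.759 (n = 2) in CD201-only and 226.0 ± 4.25 (n = 2) in double-positive cells. After a median-ratio rescaling of the libraries the sums were 223.8, 266 and 237 FPKM, so that the double-negative and double-positive groups changed places while CD201-only cells kept the highest sum. Shares within the pool do not depend on that scaling. FOXM1 with FOXD1 made up 34.0% ± 1.10 (SD, n = 2), 42.0% ± 0.484 (n = 2) and 30.6% ± 0.0791 (n = 2) of the pool in the same order of groups. FOXF1 with FOXF2 made up 3.21% ± 0.348 (n = 2), 4.78% ± 0.124 (n = 2) and 14.6% ± 0.301 (n = 2). FOXP4 went the other way, with 10.1%, 7.62% and 6.38% of the pool. No test was run on these sums and shares.

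**Figure D1:**
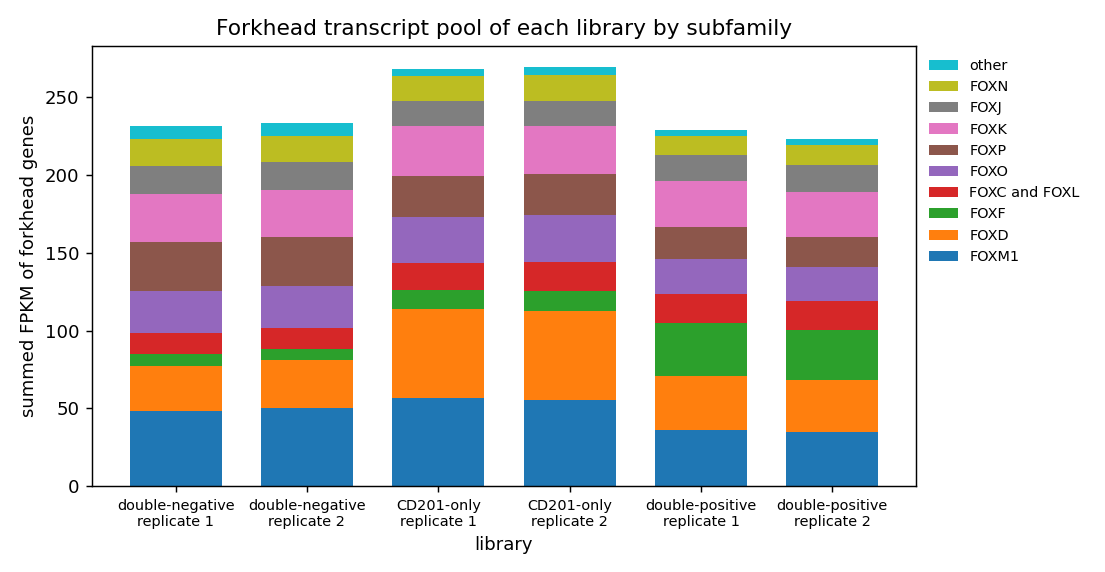
Stacked bars give the summed FPKM of the 44 forkhead genes in each of the 6 libraries, split by subfamily, with the library on the x axis. The FOXF segment was 6.92 to 8.00 FPKM in the double-negative libraries and 32.1 to 34.0 FPKM in the double-positive libraries, and the CD201-only bars are the tallest.

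In double-negative against double-positive cells, 15 of the 22 tested members passed the test at an adjusted p under 0.05 (limma on log2(FPKM + 1), Benjamini-Hochberg over all genes tested), where 66.6% of all genes tested passed. Of the members, 10 were higher (42.1% of all genes) and 5 lower (24.5%) in double-negative cells. In CD201-only against double-positive cells 16 passed (58.7% of all genes), 11 higher (35.8%) and 5 lower (22.9%). In double-negative against CD201-only cells 13 passed (37.9%), 6 higher (21.5%) and 7 lower (16.5%). Of these 13 calls, 9 held in each alternative processing in which the gene was tested. The moderated F test called 18 of the 22 (73% of all genes). In both comparisons with double-positive cells most genes differed, and the share of members called was 68.2% and 72.7%. Between double-negative and CD201-only cells 59.1% of the tested members were called. These shares include members that passed the filter through their highest group, and nothing about forkhead genes as a family is read from them. The sizes of change separated the members more: 2 members, FOXA1 and FOXI3, were higher by at least 2-fold on the log2(FPKM + 1) scale (2.01% of all genes) in double-negative than in double-positive cells and 3, FOXF1, FOXF2 and FOXL1, were lower (4.67%). At the same size none was higher (0.68%) and 2, FOXF1 and FOXL1, were lower (4.12%) in CD201-only than in double-positive cells, where 83 genes of all tested were higher. Between double-negative and CD201-only cells FOXA1 was higher (1.03%) and 0 members were lower (1.18%). The median change of the tested members was 0.10, against 0.11 over all genes tested, for double-negative against double-positive, 0.27 against 0.08 for CD201-only against double-positive, and -0.04 against 0.04 for double-negative against CD201-only.

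Every log2 change for double-negative against double-positive cells carries the upward offset of that comparison. Its median over all genes was 0.109 and fell to 0.00294 after median-ratio rescaling, which moved the share of higher calls among all genes from 63.2% to 48.3%. Among the members the split moved from 10 higher and 5 lower to 8 higher and 9 lower. Of all 12216 genes tested after rescaling, 3648 were higher and 3908 lower. FOXK1 and FOXO3 were no longer called, and FOXJ2, FOXK2, FOXO4 and FOXO6 became called as lower. The share of higher calls moved from 61.0% to 48.1% for CD201-only against double-positive cells. There 11 members were higher and 6 lower, beside 3229 higher and 3489 lower of all 12216 genes. That share moved from 56.6% to 47.1% for double-negative against CD201-only cells. The counts for the members there were 6 and 7 as before, beside 2165 higher and 2432 lower of all 12216 genes.

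Some members were called in the same direction in 1 group against both others, and a member can be so called for more than 1 group. FOXJ2, FOXJ3, FOXK2 and FOXO3B were so called for none. In double-positive cells FOXC2, FOXF1, FOXF2 and FOXL1 were called higher than in both other groups (4 of 22, 17.6% of all genes), and FOXE1, FOXI3, FOXK1, FOXM1, FOXN3, FOXO1, FOXO3 and FOXP4 lower (8 of 22, 28.8%). In CD201-only cells FOXC1, FOXD1, FOXM1, FOXO3 and FOXO6 were called higher (5 of 22, 7.79%) and FOXO4 lower (1 of 22, 7.35%). In double-negative cells FOXA1, FOXI3, FOXO1, FOXP1 and FOXP4 were called higher (5 of 22, 14.2%) and FOXD1, FOXF1 and FOXF2 lower (3 of 22, 9.74%). FOXA1, FOXC2 and FOXO6 count here only with the selection described above.

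**Figure D2:**
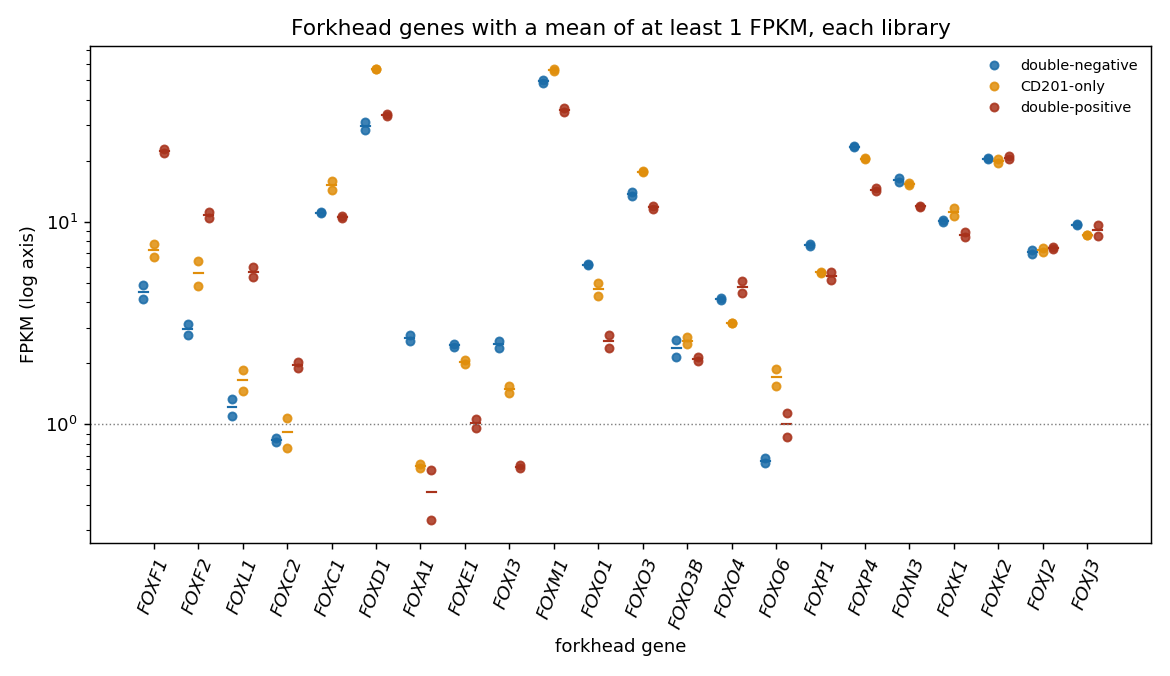
Each point is the FPKM of 1 library on a log axis, with a short bar at the mean of the 2 libraries of a group, for the 22 tested forkhead genes on the x axis. The dotted line is at 1 FPKM. FOXF1, FOXF2 and FOXL1 rise from double-negative to double-positive cells with no overlap, and FOXK2 and FOXJ2 lie together in all 3 groups.

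The mesenchymal members FOXF1, FOXF2 and FOXL1 were highest in the cells that had both surface proteins. FOXF1, a regulator of lung and gut mesenchyme and of lung vessels, was at 4.86 and 4.15 FPKM in the double-negative libraries, 7.79 and 6.69 in CD201-only and 22.8 and 21.7 in double-positive. The 3 groups did not overlap, and the double-positive libraries stood well above the others. FOXF1 was lower by 2.08 on the log2(FPKM + 1) scale (-2.08, SE 0.0878, adjusted p = 1.797e-06) in double-negative than in double-positive cells. The difference was -1.50 (adjusted p = 9.967e-06) for CD201-only against double-positive and -0.58 (adjusted p = 0.002195) for double-negative against CD201-only, so the intermediate level of CD201-only cells differed from both neighbours. In bulk libraries fewer cells with a transcript and less of it per cell cannot be told apart, here and in every result that follows.

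FOXF2, the paralogue of FOXF1 with roles in gut, palate and brain pericytes, was at 3.14 and 2.77 FPKM in double-negative, 4.80 and 6.42 in CD201-only and 11.2 and 10.4 in double-positive libraries. Again the 3 groups were in the same order without overlap, and the 2 CD201-only libraries lay furthest apart. The log2 change was -1.57 (SE 0.119, adjusted p = 2.836e-05) for double-negative against double-positive cells. It was -0.84 (adjusted p = 0.000795) for CD201-only against double-positive and -0.73 (adjusted p = 0.003037) for double-negative against CD201-only. The FOXF1 level was 1.52 ± 0.0341 times (SD, n = 2) that of FOXF2 in double-negative cells, 1.33 ± 0.411 (n = 2) in CD201-only and 2.07 ± 0.0333 (n = 2) in double-positive cells. The 2 CD201-only libraries gave ratios of 1.62 and 1.04, on either side of the double-negative ratios and below both double-positive ones.

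FOXL1, a factor of the mesenchyme beneath the gut epithelium, was at 1.33 and 1.10 FPKM in double-negative, 1.86 and 1.47 in CD201-only and 5.96 and 5.34 in double-positive libraries. The double-positive libraries stood far above the other 4. Its log2 change was -1.59 (SE 0.107, adjusted p = 1.62e-05) for double-negative and -1.32 (adjusted p = 4.67e-05) for CD201-only against double-positive cells. The 2 lower groups did not differ past the threshold (-0.26, adjusted p = 0.09446).

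FOXC2, which acts in lymphatic vessels and mesenchyme, was at 0.855 and 0.820 FPKM in double-negative, 0.762 and 1.08 in CD201-only and 1.90 and 2.04 in double-positive libraries. The double-negative and CD201-only libraries overlapped, and the double-positive libraries through which it passed the filter lay above them. Its changes against double-positive cells were -0.69 (adjusted p = 0.001009) for double-negative and -0.64 (adjusted p = 0.001873) for CD201-only. FOXS1, a factor of pericytes and neural crest, was under the filter, with 0.227 and 0.130 FPKM, 0.143 and 0.240, and 1.00 and 0.767 in the same order of libraries. FOXQ1, a factor of epithelia and hair, was under 1 FPKM throughout, with 0.0937 and 0.136, 0.0893 and 0.0754, and 0.785 and 0.670 FPKM. Both were highest in the 2 double-positive libraries, and when no filter was set both differed from double-positive cells in double-negative cells (adjusted p = 0.00265 for FOXS1 and 0.000442 for FOXQ1). They rest on about 2 to 13 fragments a library for FOXS1 and 2 to 19 for FOXQ1.

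These genes fall into groups along 2 chromosomes in the RefSeq order. On chromosome 16 the order is FENDRR, FOXF1, MTHFSD, FOXC2 and FOXL1, where FENDRR is the long noncoding RNA that starts beside FOXF1 and MTHFSD is a folate-enzyme-like gene. FENDRR, which passed the filter only through the double-positive group, was at 0.505 and 0.348 FPKM in double-negative, 1.27 and 1.08 in CD201-only and 3.40 and 3.58 in double-positive libraries, the order of FOXF1. Its log2 changes were -1.66 (adjusted p = 9.03e-06) for double-negative and -1.04 (adjusted p = 0.000106) for CD201-only against double-positive cells, and -0.61 (adjusted p = 0.00297) between the other two. MTHFSD, between FOXF1 and FOXC2, was at 5.64 to 6.43 FPKM over the 6 libraries and was called in none of the 3 comparisons, the change for double-negative against double-positive being 0.03 (adjusted p = 0.694). On chromosome 6 the order is EXOC2, FOXQ1, FOXF2, FOXC1 and GMDS, and the forkhead genes there did not share 1 pattern: FOXQ1 and FOXF2 were highest in double-positive and FOXC1 in CD201-only cells. EXOC2, an exocyst gene at one edge, was higher by 0.56 (adjusted p = 0.000465) in double-negative than in double-positive cells. GMDS, an enzyme of fucose synthesis at the other edge, was called in no comparison (0.21, adjusted p = 0.0813 in that comparison).

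**Figure D3:**
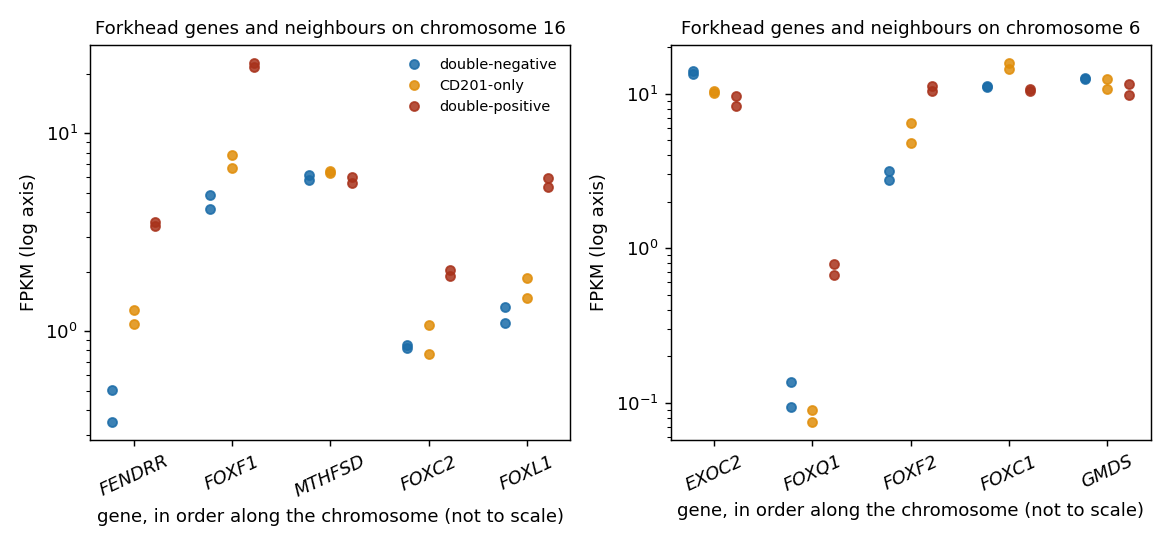
Points are the FPKM of each library on a log axis for the forkhead genes and neighbours of the chromosome 16 group (left) and the chromosome 6 group (right), in gene order on the x axis and not to scale. FENDRR, FOXF1, FOXC2 and FOXL1 are highest in the double-positive libraries while MTHFSD among them lies between 5.64 and 6.43 FPKM in all 6.

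Genes that work with FOXF factors in lung and gut mesenchyme were lower in both groups without CD13, with exceptions. Of 14 tested genes of a list of 21, 9 were lower and 3 higher in double-negative than in double-positive cells, with a median change of -0.72 against 0.11 over all genes tested. Between CD201-only and double-positive cells 10 were lower and 3 higher, with a median of -0.81. The list did not follow FOXF1 and FOXF2 in the third comparison, double-negative against CD201-only cells. There both FOXF genes were lower, while 7 listed genes were higher and 4 lower, with a median of 0.07. PDGFRB, the PDGF receptor of mesenchymal cells, changed by -2.55 (adjusted p = 2.16e-08), WNT5A, a secreted noncanonical WNT ligand, by -1.91 (adjusted p = 1.13e-07) and MYLK, the myosin light chain kinase, by -1.68 (adjusted p = 2.34e-07) between double-negative and double-positive cells, all lower in the former. The 3 that were higher in double-negative cells were KDR (1.35), a vascular VEGF receptor, MEOX2 (0.92), a mesodermal homeobox gene, and ACTG2 (0.71), a smooth muscle actin, named after their values were seen. KDR passed the filter only through the double-negative group, so a difference was built into its selection, as for FENDRR, which is also in this list. PDGFRB is also in the fibroblast marker list, of which 9 of 11 tested members were lower in double-negative than in double-positive cells, with a median of -1.24. Against CD201-only cells 8 of these markers were higher and 2 lower in double-negative cells. The part of the fibroblast markers in the FOXF result was not tested.

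The Hedgehog pathway, which acts upstream of FOXF1 and FOXF2 in gut and lung, showed no common direction. Of 12 tested genes of 17, 2 were higher and 4 lower in double-negative than in double-positive cells, with a median of -0.05, and 4 were higher and 3 lower in CD201-only than in double-positive cells, with a median of 0.06. GAS1, a Hedgehog co-receptor, was at 4.29 and 4.48 FPKM in double-negative, 4.61 and 4.44 in CD201-only and 12.3 and 11.8 in double-positive libraries. Its log2 change was -1.28 (adjusted p = 2.72e-06) and -1.24 (adjusted p = 3.97e-06) for double-negative and for CD201-only cells, each against double-positive cells. GLI1, a transcription factor and target of the pathway, changed by -0.54 (adjusted p = 0.00352) and -0.59 (adjusted p = 0.0027), and the co-receptor BOC by -0.46 (adjusted p = 0.00167) and -0.38 (adjusted p = 0.00507). The co-receptor CDON went the other way, with 0.49 (adjusted p = 0.00111) and 0.87 (adjusted p = 7.86e-05). The ligand genes SHH, IHH and DHH were under a mean of 1 FPKM and were not tested.

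FOXD1 and FOXC1, factors of kidney stroma and of eye and mesoderm, were highest in CD201-only cells. FOXD1 was at 28.5 and 31.0 FPKM in double-negative, 56.6 and 56.7 in CD201-only and 33.9 and 33.2 in double-positive libraries. The 2 CD201-only libraries stood far above the other 4, which lay close together. FOXD1 was higher by 0.74 (SE 0.0435, adjusted p = 1.026e-05) in CD201-only than in double-positive cells and lower by 0.91 (-0.91, adjusted p = 1.079e-05) in double-negative than in CD201-only cells. Double-negative cells were also below double-positive cells (-0.17, adjusted p = 0.01099), although not when double-negative replicate 1 was left out (adjusted p = 0.062). FOXC1 was at 11.0 and 11.1 FPKM in double-negative, 14.4 and 15.9 in CD201-only and 10.7 and 10.5 in double-positive libraries. It was higher by 0.48 (adjusted p = 0.0003471) in CD201-only than in double-positive cells, and the other 2 groups did not differ past the threshold (0.06, adjusted p = 0.3936).

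FOXA1, the endodermal and epithelial pioneer factor, was found at a low level and mainly in double-negative cells. It was at 2.76 and 2.57 FPKM in double-negative, 0.641 and 0.606 in CD201-only and 0.336 and 0.595 in double-positive libraries. The double-negative libraries stood apart from the other 4, which lay under 1 FPKM, and FOXA1 passed the filter through them. The mean FPKM was 5.73 times that of double-positive cells, and the log2(FPKM + 1) change was 1.33 (SE 0.112, adjusted p = 4.829e-05). It was 1.17 (adjusted p = 0.0002491) against CD201-only cells, and CD201-only and double-positive cells did not differ past the threshold (0.15, adjusted p = 0.2733). With a pseudocount of 0.1 in place of 1 the first change was 2.33, since a pseudocount of 1 compresses the changes of low genes. The estimated number of fragments behind FOXA1 ran from 10 to 100 a library, and without either double-negative library it fell under the filter and was not tested. FOXA2 was listed at 0 in all 6 libraries, and FOXA3 was at 0.239 to 0.846 FPKM.

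The other genes of the endoderm programme were close to absent. None of 23 listed endoderm genes reached a mean of 1 FPKM over the 6 libraries. After median-ratio rescaling 1 did so, GATA6, with changes of -0.44, -0.94 and 0.50 in the 3 comparisons, each called. The genes SOX17, GSC, CER1, PDX1, TTR, ALB, TFF1, TFF3, NKX2-1 and ONECUT1 were listed at 0 in all libraries. GATA6, a factor of endoderm and mesoderm, was at 1.15 and 0.869 FPKM in double-negative, 0.274 and 0.522 in CD201-only and 1.62 and 1.55 in double-positive libraries. HNF4A, a liver and gut factor, was at 0.678 and 0.549, 0.955 and 0.837, and 1.27 and 1.36 FPKM in the same order. Both were highest in the double-positive libraries. AFP, the fetal liver protein, was at 0.561 and 0.785, 0.246 and 0.587, and 0.429 and 0.237 FPKM, highest on average in double-negative cells, though the groups overlapped. SFTPB, a lung surfactant protein gene, was at 0.124 and 0.0530, 0.275 and 0.354, and 0.541 and 0.541 FPKM. These 4 genes, untested in the main fit and named after their values were seen, did not share 1 order of groups.

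Partners and targets of FOXA1 in hormone-responsive epithelia were measured through 7 tested genes of 14. In double-negative against double-positive cells 4 were higher and 1 lower, with a median of 0.35. KRT8, a keratin of simple epithelia, was higher by 0.88 (adjusted p = 3.91e-07), TFAP2C, an AP-2 factor, by 0.77 (adjusted p = 6.53e-06) and XBP1, a secretory-pathway factor, by 0.37 (adjusted p = 2.67e-05). CCND1, the G1 cyclin D1, was the gene that was lower (-1.26, adjusted p = 7.81e-08). Between CD201-only and double-positive cells, where FOXA1 did not differ past the threshold, KRT8 was higher by 1.21 (adjusted p = 1.41e-07) and the counts were again 4 and 1. Against CD201-only cells, double-negative cells had more FOXA1, but 2 of the listed genes were higher and 3 lower, with a median of -0.14. KRT8 was lower there (-0.33, adjusted p = 9.26e-05). PGR, TFF1 and KLK3 were listed at 0 in all libraries. Pluripotent cell markers followed FOXA1 in part. In double-negative cells 8 of 8 tested were higher than in double-positive cells, with a median of 1.51. There 6 were higher and 1 lower than in CD201-only cells, with a median of 0.54. All 8 were also higher in CD201-only than in double-positive cells, with a median of 0.98, where FOXA1 did not differ past the threshold. LIN28A, an RNA-binding protein gene of pluripotent cells, averaged 11.5, 3.15 and 1.67 FPKM in the order of groups used above. Keratinocyte markers were measured too: 4 of 8 keratinocyte markers were tested, and their list summed to 32.2 to 32.4, 75.8 to 77.3 and 65.5 to 66.0 FPKM in double-negative, CD201-only and double-positive libraries. KRT14 (-3.45) and KRT5 (-1.10), keratins of basal keratinocytes, were lower in double-negative than in double-positive cells, and TP63, IVL, DSG3 and KRT1 were under a mean of 1 FPKM. The part of either marker list in the FOXA1 result was not tested.

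FOXE1, a thyroid and palate factor, and FOXI3, a factor of ectodermal placodes, hair and teeth, also fell toward double-positive cells. FOXE1 was at 2.40 and 2.51 FPKM in double-negative, 1.99 and 2.08 in CD201-only and 0.963 and 1.07 in double-positive libraries. FOXI3 was at 2.39 and 2.59, 1.43 and 1.55, and 0.631 and 0.608 FPKM. Both ran in the same order of groups without overlap. The FOXE1 change was 0.78 (adjusted p = 0.0001479) for double-negative and 0.59 (adjusted p = 0.0007085) for CD201-only against double-positive cells, and 0.19 (adjusted p = 0.1176) between the other two. The FOXI3 changes were 1.11 (adjusted p = 3.231e-05), 0.62 (adjusted p = 0.0007199) and 0.49 (adjusted p = 0.00438). FOXJ1, the regulator of motile cilia, was under the filter with 1.27 and 1.06, 0.584 and 0.590, and 0.255 and 0.271 FPKM, the same order. It was not part of the main test; with no filter its changes were 0.78 (adjusted p = 0.000571), 0.33 (adjusted p = 0.0122) and 0.45 (adjusted p = 0.00841).

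**Figure D4:**
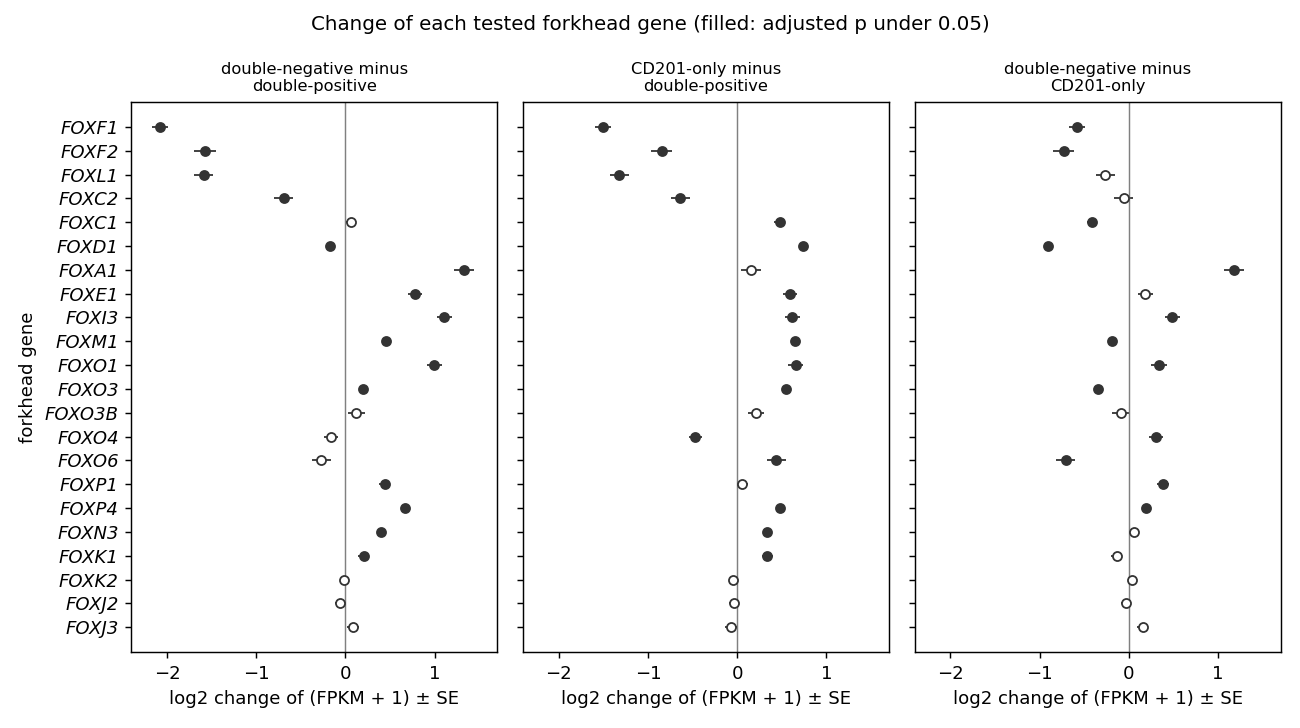
The log2 change of (FPKM + 1) with its standard error is on the x axis for each of the 22 tested forkhead genes, in 3 panels for the 3 comparisons, with filled points at an adjusted p under 0.05. FOXF1 (-2.08), FOXL1 (-1.59) and FOXF2 (-1.57) lie far to the left and FOXA1 (1.33) and FOXI3 (1.11) far to the right in the first panel. The panels share groups and are not independent of one another.

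FOXM1, the mitotic factor, was higher in both groups without CD13 and highest in CD201-only cells. It was at 48.4 and 50.2 FPKM in double-negative, 57.0 and 55.5 in CD201-only and 36.3 and 34.9 in double-positive libraries. The 3 groups did not overlap. The log2 change was 0.46 (SE 0.0359, adjusted p = 3.39e-05) for double-negative and 0.64 (adjusted p = 7.852e-06) for CD201-only against double-positive cells. Double-negative cells were below CD201-only cells by a smaller step (-0.19, adjusted p = 0.006268), which was not called without double-negative replicate 1 (adjusted p = 0.0537). After median-ratio rescaling the first change was 0.34 (adjusted p = 0.00018). RHNO1, a DNA-damage checkpoint gene that starts head to head with FOXM1, was higher by 0.27 (adjusted p = 0.0252) in double-negative than in double-positive cells and was called in neither other comparison.

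Mitotic genes that FOXM1 and the MuvB complex activate were higher together in both groups without CD13. Of 27 tested genes of 28, 25 were higher and 2 lower in double-negative than in double-positive cells, with a median change of 0.55 against 0.11 over all genes. In CD201-only against double-positive cells 25 were higher and 1 lower, with a median of 0.59, and in double-negative against CD201-only cells 2 were higher and 8 lower, with a median of -0.08. CKS1B, a cyclin-dependent kinase subunit, was higher by 0.99 (adjusted p = 4.8e-05), the spindle checkpoint kinase gene BUB1B by 0.83 (adjusted p = 7.4e-05), cyclin B2 gene CCNB2 by 0.76 (adjusted p = 3.3e-06) and the mitotic kinesin gene KIF20A by 0.73 (adjusted p = 2.82e-05). The genes that were lower were CDC25B (-0.53), a phosphatase that activates CDK1, and CENPB (-0.29), a centromere protein gene, named after their values were seen. After median-ratio rescaling 24 were higher and 2 lower, with a median of 0.43.

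The complexes that occupy those promoters include MYB-MuvB, which recruits FOXM1, and the repressive DREAM complex, whose E2F, DP and pocket proteins are not FOXM1 partners. Of 11 tested genes of both complexes, 5 were higher and 3 lower in double-negative than in double-positive cells (3 and 3 after median-ratio rescaling). For CD201-only against double-positive cells 5 were higher and 2 lower. MYBL2, the B-MYB subunit of dividing cells, was higher by 0.98 (adjusted p = 7.65e-07) and 1.22 (adjusted p = 4.28e-07) in the 2 groups without CD13 against double-positive cells. RBBP4, a histone chaperone subunit, was higher by 0.68 (adjusted p = 0.000316) and LIN54, the DNA-binding subunit, by 0.41 (adjusted p = 0.00246), and TFDP2, a dimer partner of E2F factors, was lower (-0.45, adjusted p = 0.00122) in double-negative than in double-positive cells.

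The FOXO members, which control stress resistance, metabolism and cell cycle exit, did not share 1 pattern. FOXO1 was at 6.09 and 6.18 FPKM in double-negative, 4.29 and 5.00 in CD201-only and 2.39 and 2.77 in double-positive libraries. It fell in that order without overlap of groups. Its log2 change was 1.00 (SE 0.0882, adjusted p = 6.235e-05) for double-negative and 0.66 (adjusted p = 0.0006298) for CD201-only against double-positive cells. It was 0.34 (adjusted p = 0.0213) between the other two, which was not called when no filter was set (adjusted p = 0.0607). That call was also lost without double-negative replicate 1 (change 0.35), double-negative replicate 2 (0.33) or CD201-only replicate 1 (0.25). FOXO3, the most abundant FOXO gene, was at 14.01 and 13.4 FPKM in double-negative, 17.7 and 17.5 in CD201-only and 11.98 and 11.6 in double-positive libraries. The CD201-only libraries were the highest, above double-positive cells by 0.54 (adjusted p = 5.582e-05) and above double-negative cells (-0.34, adjusted p = 0.00119, for double-negative against CD201-only). Double-negative cells were above double-positive cells by 0.20 (adjusted p = 0.006374), or 0.09 (adjusted p = 0.144) after median-ratio rescaling. The FOXO3 level was 2.23 ± 0.0973 times (SD, n = 2) that of FOXO1 in double-negative, 3.82 ± 0.441 (n = 2) in CD201-only and 4.59 ± 0.577 (n = 2) in double-positive cells.

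FOXO4, another FOXO gene, was lowest in the CD201-only cells in which FOXO3 was highest. It was at 4.13 and 4.19 FPKM in double-negative, 3.17 and 3.17 in CD201-only and 5.09 and 4.46 in double-positive libraries, and the CD201-only libraries were the lowest. It was lower in CD201-only than in double-positive cells (-0.47, adjusted p = 0.001529) and higher by 0.31 (adjusted p = 0.01756) in double-negative than in CD201-only cells. The latter call was lost after quantile normalization (0.24, adjusted p = 0.0588). It was also lost when any 1 of the 4 libraries compared was left out, with changes of 0.30 to 0.31. Its change of -0.16 (adjusted p = 0.09777) for double-negative against double-positive cells was called without double-positive replicate 2 (adjusted p = 0.0417). FOXO6, whose shuttling out of the nucleus is limited, was at 0.679 and 0.642, 1.55 and 1.89, and 0.871 and 1.14 FPKM. The CD201-only libraries were the highest and carried it past the filter. Its change was 0.44 (adjusted p = 0.01202) for CD201-only against double-positive cells, which was not called without double-positive replicate 1 (adjusted p = 0.0564), and -0.71 (adjusted p = 0.00255) for double-negative against CD201-only cells. Its change of -0.27 (adjusted p = 0.06624) for double-negative against double-positive cells was called without that same library (adjusted p = 0.0408). FOXO3B, a near-identical copy of FOXO3 whose reads cannot be told apart with certainty, was at 2.05 to 2.70 FPKM over the 6 libraries and was called in no comparison. The main FOXO genes together (FOXO1, FOXO3, FOXO4 and FOXO6) summed to 24.7 ± 0.368 FPKM (SD, n = 2) in double-negative, 27.2 ± 0.597 (n = 2) in CD201-only and 20.1 ± 0.262 (n = 2) in double-positive cells.

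Genes known as FOXO targets were more often lower than higher in the groups where FOXO1 was higher. Of 31 tested genes of 40, 16 were lower and 6 higher in double-negative than in double-positive cells, with a median of -0.29 against 0.11 over all genes. For CD201-only against double-positive cells, 19 were lower and 6 higher, with a median of -0.22 against 0.08. CCND1, which FOXO factors repress, changed by -1.26 (adjusted p = 7.81e-08), the cell cycle inhibitor gene CDKN1A by -1.09 (adjusted p = 6.13e-08), CITED2, a CBP/p300-binding regulator, by -0.95 (adjusted p = 1.17e-06), and CAT, the catalase gene, by -0.95 (adjusted p = 7.51e-06), each lower in double-negative than in double-positive cells. CDKN1A and CAT are activated and CCND1 is repressed by FOXO factors, so the list does not have 1 expected direction.

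Genes that control FOXO proteins after translation were also measured. Of 28 tested genes of the PI3K, AKT and 14-3-3 list of 31, 14 were higher and 4 lower in double-negative than in double-positive cells, with a median of 0.17 against 0.11 over all genes (10 and 6 after median-ratio rescaling). The CD201-only cells had 15 of these genes higher and 5 lower than double-positive cells. SGK1, a kinase that phosphorylates FOXO proteins, was higher by 1.26 (adjusted p = 1.01e-06), the deacetylase gene SIRT1 by 0.69 (adjusted p = 0.000515), the ubiquitin ligase gene SKP2 by 0.65 (adjusted p = 2.55e-05) and the insulin receptor substrate gene IRS2 by 0.55 (adjusted p = 0.000226) in double-negative than in double-positive cells. SKP2 is also in the mitotic list, and IRS2 is also a FOXO target.

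**Figure D5:**
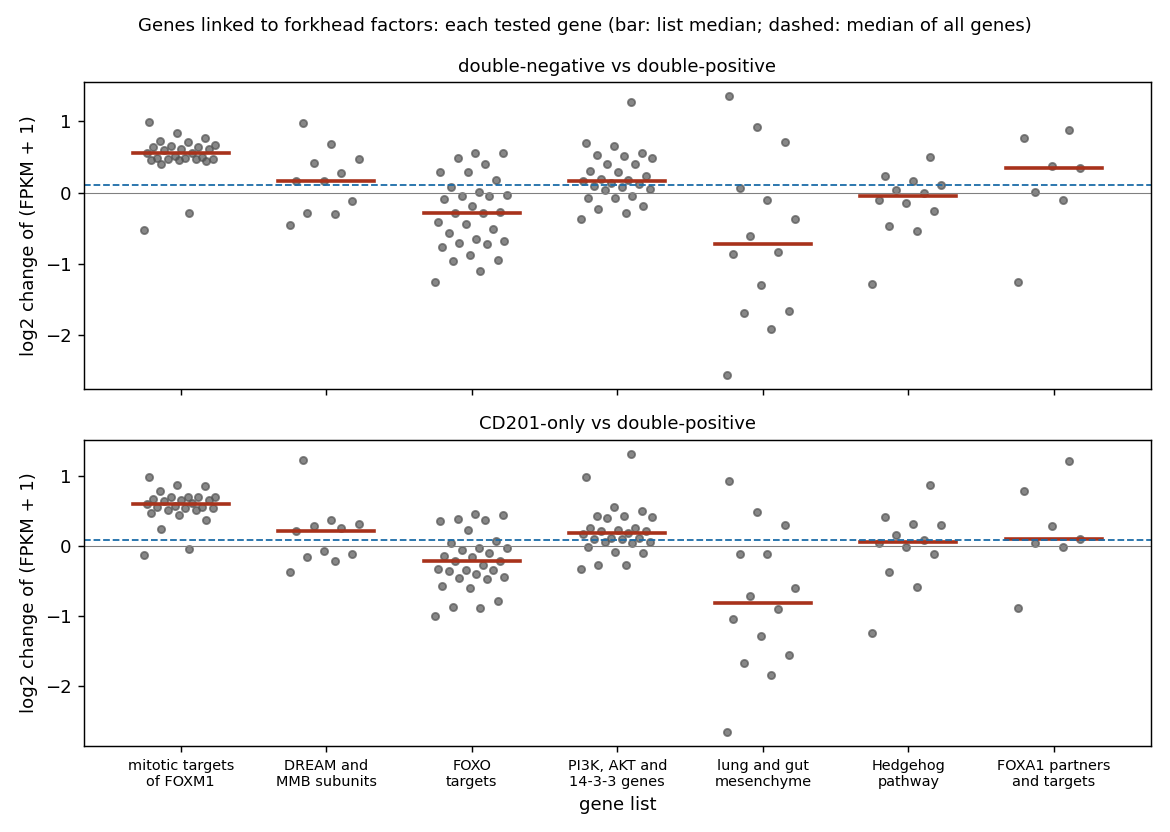
Each point is the log2 change of (FPKM + 1) of 1 tested gene on the y axis, by gene list on the x axis, for double-negative (top) and CD201-only (bottom) against double-positive cells. Red bars are list medians and the dashed line is the median of all genes tested (0.11 and 0.08). The mitotic targets lie above the line in both panels apart from a few genes, and the FOXO targets and mesenchyme genes are spread with medians under it.

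The remaining members are repressors and broadly expressed factors. FOXP4, a repressor of the FOXP subfamily, was at 23.6 and 23.4 FPKM in double-negative, 20.4 and 20.6 in CD201-only and 14.6 and 14.2 in double-positive libraries. It fell in that order without overlap, with changes of 0.67 (adjusted p = 7.091e-06) and 0.48 (adjusted p = 4.287e-05) against double-positive cells. The 2 groups without CD13 differed by 0.19 (adjusted p = 0.007685), which was not called without double-negative replicate 1 (adjusted p = 0.0565). FOXP1, its relative in B cells, heart and lung, was at 7.74 and 7.60, 5.61 and 5.68, and 5.63 and 5.14 FPKM. Only double-negative cells stood apart, with changes of 0.44 (adjusted p = 0.0006483) against double-positive and 0.38 (adjusted p = 0.002991) against CD201-only cells.

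FOXN3, a repressor linked to the DNA-damage checkpoint, was at 16.4 and 15.7 FPKM in double-negative, 15.2 and 15.5 in CD201-only and 11.97 and 11.9 in double-positive libraries. The double-positive libraries were the lowest, with changes of 0.40 (adjusted p = 0.0002111) and 0.34 (adjusted p = 0.0005682) for the other groups against them. FOXN3-AS1, an antisense transcript of that gene, was at 1.87 and 2.14, 1.33 and 1.52, and 1.09 and 1.19 FPKM in the same order. Its change was 0.49 (adjusted p = 0.00301) for double-negative against double-positive cells. The library kit keeps strand, but the strand setting of the counting is not given in the sources used here, so reads of the 2 genes may not be told apart.

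FOXK1 and FOXK2, which repress autophagy genes and bind the BAP1 complex, were broadly present. FOXK1 was at 10.2 and 9.99, 11.7 and 10.7, and 8.90 and 8.39 FPKM, with the double-positive libraries lowest. It was higher by 0.34 (adjusted p = 0.002455) in CD201-only than in double-positive cells. Its change for double-negative against double-positive cells was 0.20 (adjusted p = 0.02001), and 0.09 (adjusted p = 0.221) after median-ratio rescaling. After quantile normalization that change was 0.16 (adjusted p = 0.0644). It was also not called without double-negative replicate 1 (change 0.19), double-negative replicate 2 (0.22) or double-positive replicate 2 (0.17). FOXK2 stayed between 19.5 and 21.1 FPKM in all libraries and was called in none of the comparisons (-0.01, adjusted p = 0.7687, for double-negative against double-positive). FOXJ2 and FOXJ3, 2 widely expressed factors, were at 6.90 to 7.48 and 8.53 to 9.70 FPKM and were likewise not called. A p above the threshold does not show that these levels were equal.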

How the data were processed

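Messenger RNA of 6 sorted libraries (3 groups, 2 libraries each, day 8) was measured by sequencing of poly-A-selected stranded libraries, as the labels' protocols describe. A single table was deposited, with FPKM values per gene as the authors computed them; STAR, Cuffnorm and the builds hg19 and GRCh37 are named in the submitters' processing notes, while for versions, options, annotation and strand setting the sources used here give nothing. FPKM values are not counts, so deposited values were taken as log2(FPKM + 1) and tested with limma 3.58.1 (R 4.3.3, trend, 1 coefficient per group over all 6 libraries, 3 residual degrees of freedom). Of 27788 genes, the 12210 averaging 1 FPKM or more were kept, p-values were adjusted by Benjamini-Hochberg over them, and calls were made at an adjusted p under 0.05. The procedure was checked on simulated data. At an unadjusted p under 0.05, 8496, 7746 and 5762 genes passed in the 3 comparisons, in the order of the report.

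The members, the gene lists and the tests were chosen with earlier results of these data known. Every member averaging 1 FPKM or more was named with its values. From each other list up to 4 genes were named, those with the largest absolute change in double-negative against double-positive cells among genes called in any comparison, and neighbouring genes at that level. Genes named outside that rule are marked in the text; among other listed genes, FENDRR, KDR, ROBO4, LUM, DISP1 and SESN3 passed the filter only through their highest group and are included in list counts, and a few listed genes are not reported here. Fragments behind a value were approximated from the steps between the lowest values of 23 genes with an assumed fragment length of 200 bases, and cover counting error only. The alternatives were another pseudocount, other filters, 2 rescalings, limma settings, a replicate block, only the 4 libraries compared and each library left out; counts of the gene lists after rescaling were added after seeing the data. Promoter windows are RefSeq's on GRCh38.p14; the files' own build differs, so no coordinate was carried between them, and RefSeq was otherwise used only for gene order. Python 3.11.15, pandas 2.3.3, numpy 2.4.6 and matplotlib 3.10.9 were used.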

Additional observations from a re-analysis of the deposited data

How the results depend on the processing

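With 2 libraries a group, the tests rest on 3 residual degrees of freedom. Of the calls in double-negative against double-positive, CD201-only against double-positive and double-negative against CD201-only cells, 12 of 15, 15 of 16 and 9 of 13 held in each alternative in which the gene was tested; FOXD1, FOXK1 and FOXO3, then FOXO6, then FOXM1, FOXO1, FOXO4 and FOXP4 lost theirs in at least 1. With a mean of at least 5 FPKM, which left 13 members to test, 9, 9 and 8 were called, and 10 by the F test. Among all 8272 genes kept by that filter, 3907 were higher and 2163 lower in the first comparison. In the second 3583 were higher and 1979 lower, and in the third 1916 and 1664. Nothing about forkhead genes as a family is read from these counts. Leaving out 1 library left its group with 1 library and also changed the members tested. FOXA1 was not tested without either double-negative library, and FOXO6 was not tested without CD201-only replicate 2. Pool sums with 1 library of the group ran from 231.3 to 233.3 (double-negative), 268.2 to 269.3 (CD201-only) and 223 to 229 FPKM (double-positive), and were 223.8, 266 and 237 after median-ratio rescaling. Changes of sign were seen for values that had not been called in the report. After rescaling these were FOXC1 (-0.054) and FOXJ3 (-0.02621) in double-negative against double-positive, FOXP1 (-0.01256) in CD201-only against double-positive and FOXK2 (-0.001602) in double-negative against CD201-only cells. With 1 library left out the values ran from -0.1897 to 0.01209 for FOXO3B and from -0.1759 to 0.06047 for FOXC2 in double-negative against CD201-only, from -0.04263 to 0.01286 for FOXK2 in double-negative against double-positive and from -0.1504 to 0.01239 for FOXJ3 in CD201-only against double-positive cells. The cause of these changes was not tested.

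The replicate numbers give 2 pairs, and the labels do not say that a number marks a shared batch. Same-numbered libraries correlated at 0.076, -0.073 and 0.117 in their deviations from the group means. With 2 libraries a group, these values cannot show whether a number marks a shared culture, sort or batch. A fit with the replicate block called 15, 16 and 14 members. Among all 12210 genes it called 5121 higher and 2989 lower in the first comparison. In the second it called 4392 and 2797, and in the third 2617 and 1973. Nothing about forkhead genes as a family is read from these counts. FOXL1 was gained in double-negative against CD201-only cells (adjusted p = 0.0438).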

Other observations

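Partners of the FOXP and FOXK repressors varied around the median of all genes. Of 26 tested genes of 28, 12 were higher and 4 lower in double-negative than in double-positive cells, with a median of 0.10 against 0.11 over all genes tested (9 and 8 after median-ratio rescaling). Between CD201-only and double-positive cells 13 were higher and 7 lower, with a median of 0.09 against 0.08. NFATC4, a calcineurin-regulated factor of a family that binds DNA with FOXP proteins, was at 8.18 and 7.79 FPKM in double-negative, 8.26 and 8.38 in CD201-only and 20.8 and 20.9 in double-positive libraries. The double-positive libraries stood apart, with changes of -1.28 (adjusted p = 1.07e-06) and -1.23 (adjusted p = 1.6e-06) against them. NFATC2, of the same family, was at 0.967 and 1.08, 0.923 and 1.18, and 3.39 and 3.56 FPKM, with changes of -1.14 (adjusted p = 4.79e-05) and -1.13 (adjusted p = 6.13e-05). HDAC2, a histone deacetylase of the NuRD corepressor, was higher by 0.48 (adjusted p = 6.56e-05), and MBD2, the methyl-CpG-binding NuRD subunit, was lower (-0.43, adjusted p = 0.0125) in double-negative than in double-positive cells.

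Endothelial and blood markers were measured as well. Of 4 tested endothelial markers of 8 (ROBO4, CLDN5, TIE1 and TEK), 4 were lower in double-negative than in double-positive cells, with changes of -2.21, -1.34, -1.33 and -0.44, and the list summed to 17.2 to 17.8, 32.9 to 34.9 and 34.0 to 36.8 FPKM in double-negative, CD201-only and double-positive libraries; PECAM1, CDH5, VWF and ERG were under a mean of 1 FPKM. Of 2 tested blood markers of 8, CD14 and CD68, both were lower in double-negative than in double-positive cells, and the list summed to 31.2 to 32.8, 16.2 to 18.2 and 85.6 to 89.8 FPKM; CD3E and GATA1 were listed at 0 in all libraries. ROBO4 passed the filter only through the double-positive group. The summed blood markers were highest in the double-positive libraries, the summed endothelial markers overlapped between CD201-only and double-positive libraries, and TEK was highest in CD201-only cells (25.5 FPKM against 13.7 in double-negative and 19.0 in double-positive). Their part in the forkhead results was not tested.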
